A study of Mus musculus with 4 samples.

Results

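Chemokines are small secreted proteins that direct the movement of leukocytes, and the genes for these ligands and for their receptors were described across 4 mouse digit tip libraries. The members were the genes whose symbol follows the naming of the CC, CXC, CX3C and XC ligands and receptors, together with the atypical receptors Ackr1, Ackr2, Ackr3 and Ackr4, and with Cxcl1, Cxcl2 and Cxcl5 left out. The pattern found 60 of the 45706 genes in the count table, of which 35 were ligands, 23 were receptors and 2 were pseudogenes. The pattern uses names only, though the family was picked with earlier results of these data known.

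The libraries came from regenerating digit tips collected 14 days after amputation, with 1 library each from Sp6 conditional knockout (cKO), Sp8 cKO, Sp6+Sp8 cKO and wildtype mice. Sp6 and Sp8 encode zinc-finger transcription factors of the Sp family that act in epidermis, and the design asks how the regenerate differs when either or both are deleted. Conditional deletion was induced with intraperitoneal tamoxifen in corn oil at 75 mg/kg, given on each of 5 days and followed by 5 days of rest ahead of amputation. The sources used here do not give the Cre driver, the strain, the age, how many digits or animals went into a library, or whether wildtype mice also had tamoxifen, and they describe cuts of the distal and the middle phalanx without assigning either. By their labels the 3 cKO libraries belong to batch 1 and that of wildtype to batch 3. Against wildtype, deletion and batch cannot be told apart, whereas the cKO libraries can be set against each other inside batch 1.

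A chemokine acts by binding a receptor coupled to an inhibitory G protein on a leukocyte, which then polarises and moves up the ligand's gradient. Homeostatic chemokines such as Cxcl12 and Cxcl14 are made in resting skin and connective tissue, while inflammatory ones such as Ccl2 and Ccl3 are made on injury by resident and infiltrating cells. Atypical receptors bind chemokines without this signal and clear or transport them, and in skin wounds the family governs which leukocytes enter and leave.

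Estimated counts summed to 13054843 in Sp6 cKO, 12588511 in Sp8 cKO, 15146015 in Sp6+Sp8 cKO and 21834883 in wildtype, so that 1 count was worth 0.0775, 0.0794, 0.0650 and 0.0460 CPM (counts scaled to the library's size) in that order. Sp6 stood at 29.2 CPM in Sp6 cKO, 95.6 in Sp8 cKO, 57.8 in Sp6+Sp8 cKO and 97.7 in wildtype. Sp8 stood at 66.1 CPM in Sp6 cKO, 16.8 in Sp8 cKO, 13.4 in Sp6+Sp8 cKO and 63.9 in wildtype. Sp6 was thus 1.74 lower on the log2 scale in Sp6 cKO than in wildtype but only 0.76 lower in Sp6+Sp8 cKO. The female-specific transcript Xist stood at 1963, 27.9, 3528 and 1526 CPM in the same order, while Y-linked Kdm5d was present in all 4. The sex makeup of the libraries therefore also differed. Inside batch 1 too, deletion and sex makeup cannot be told apart in ratios to the Sp8 cKO library. Keratinocyte and fibroblast markers, which belong to a digit tip, summed to between 21213 and 26556 CPM and between 12407 and 15671 CPM, with 0 of 7 past the size rule given below in any comparison. The wildtype library was the deepest, so equal counts stand for a lower level there. With 1 library per group no difference was tested, and every ratio below compares 2 libraries, with an interval that covers counting error only and treats PCR copies as if they were separate molecules. In whole tissue, fewer cells of a type and less RNA per cell cannot be told apart.

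Of the 60 members, 39 reached 1 CPM in at least 1 library, 15 had counts but stayed under 1 CPM, and 6 had a count of 0 in all 4 libraries. Members were then read by a size rule. To pass it, a gene needed a log2 ratio of at least 1 (2-fold) upward or downward. That log2 ratio includes a prior count of 2, which draws ratios of small counts toward 0. The gene also had to reach 1 CPM in the higher library and have an exact 95% interval of its ratio that left out 1. Folds printed below carry no prior count, so a fold just above 2 could miss the rule. Against wildtype, 6 of the 36 members compared in Sp6 cKO were higher (16.7%) and 0 were lower, where 2.24% of all 16884 genes compared were higher and 2.16% lower. In Sp8 cKO, 6 of 33 members were higher (18.2%) and 1 was lower, where the rule put 2.27% of all genes higher and 1.55% lower. In Sp6+Sp8 cKO, 5 of 34 members were higher (14.7%) and 2 were lower (5.88%), where 2.84% of all genes were higher and 2.95% lower.

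The shares of higher members stood above those of all genes in each of the 3 comparisons, which all use the same wildtype library. A gene of low level could enter a comparison through its higher library alone, so these shares describe the members compared and not the whole family. The members' median log2 ratio to wildtype was 0.43 with Sp6 deleted, 0.20 with Sp8 deleted and 0.20 with both deleted, against medians between -0.02 and -0.01 over all genes. Only Cxcl13 and Ccl8 were past the rule upward in all 3 cKO libraries, and no member was past it downward in all 3. Without the CPM minimum Ccr3 was also past it upward in all 3. Under a CPM minimum of 5 the Cxcl13 calls in Sp6 cKO (4.57 CPM) and Sp8 cKO (3.41 CPM) were lost. In the same libraries mast cell markers summed to 126, 145 and 98.7 CPM in Sp6, Sp8 and Sp6+Sp8 cKO and 79.6 in wildtype, with 1, 4 and 0 of 7 compared higher than wildtype. Red blood cell markers summed to 336, 687 and 349 CPM in the cKO libraries and 263 in wildtype, with 1, 4 and 1 of 5 compared higher. The call in Sp6 cKO and in Sp6+Sp8 cKO was the globin gene Hba-a2, at log2 ratios of 1.40 and 1.34. The related globin gene Hba-a1 stood at -0.89 and -0.58, and how reads were divided between these genes was not examined. The part of mast cells and red blood cells in the family's counts was not tested. Among the cKO libraries the calls were split nearly evenly between the directions. In Sp6+Sp8 cKO against Sp6 cKO, 2 of 38 members were higher and 3 lower, where 1.89% of all genes were higher and 2.08% were lower. In Sp6+Sp8 cKO against Sp8 cKO, 2 of 34 were higher and 2 lower, where 1.88% of all genes were higher and 2.8% were lower. In Sp6 cKO against Sp8 cKO, 2 of 38 were higher and 3 lower, where 1.35% of all genes were higher and 1.75% lower.

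**Figure D1:**
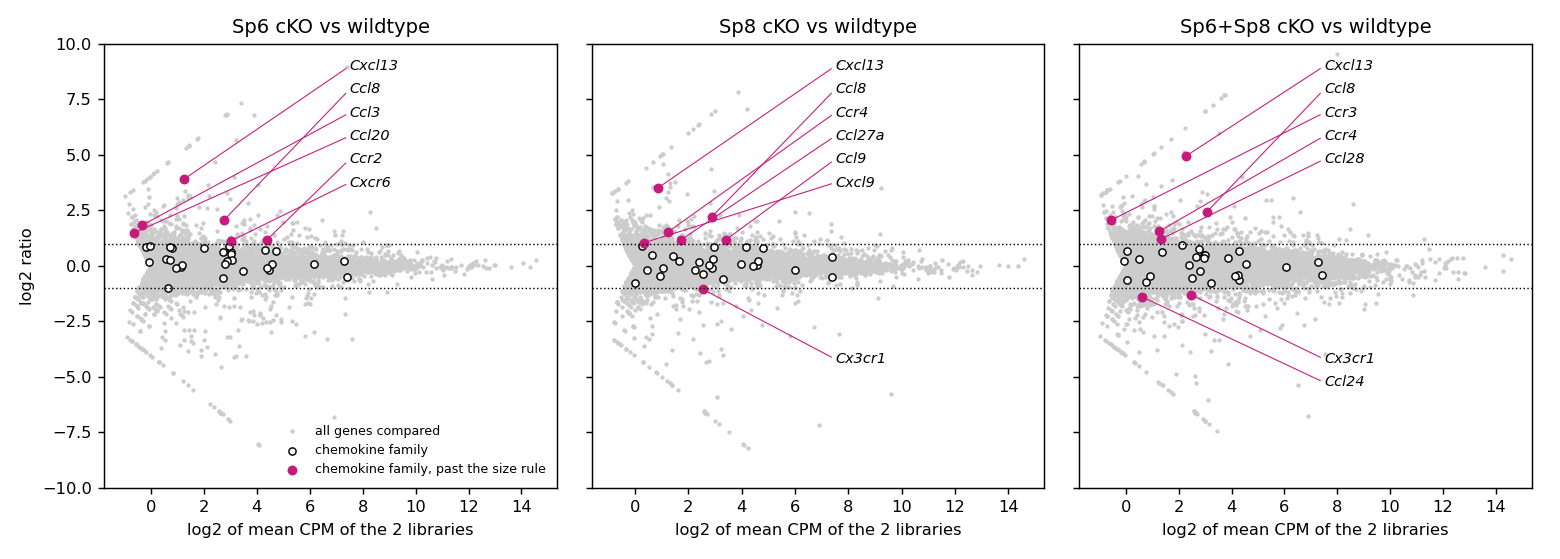
Log2 ratio of each cKO library to the wildtype library (vertical axis) against the log2 of the mean CPM of both libraries (horizontal axis), for all genes compared (grey) and for the chemokine family (circles, filled where past the size rule). Most of the family lies between the dotted lines at log2 ratios of -1 and 1, while Cxcl13 lies at 3.92, 3.51 and 4.96 and Ccl8 at 2.05, 2.22 and 2.43.

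Upstream sequences are shown for 5 members on which the account turns, from the RefSeq transcript starts on GRCm38.p6 and on the gene's own strand. Cxcl13 and Ccl8 are shown because they were higher than wildtype in every cKO library, Ccr4 because it was the receptor higher in both libraries with Sp8 deleted, Cxcl10 because it differed among the cKO libraries, and Cxcl12 because it is a chief homeostatic ligand whose promoter holds several Sp-type boxes. Capitals mark matches, on either strand, to an NF-kB motif (GGGA, any 2 bases, then TTCC), an AP-1 motif TGANTCA, a STAT motif TTCNNNGAA or the Sp-type GC box GGGCGG. The sequence of Cxcl13 is from chr5:95956689-95956938 (plus strand), that of Ccl8 from chr11:82114935-82115184 (plus), that of Ccr4 from chr9:114496545-114496744 (minus), that of Cxcl10 from chr5:92348890-92349089 (minus) and that of Cxcl12 from chr6:117168335-117168534 (plus), each ending at the base before the transcript start.
Cxcl13: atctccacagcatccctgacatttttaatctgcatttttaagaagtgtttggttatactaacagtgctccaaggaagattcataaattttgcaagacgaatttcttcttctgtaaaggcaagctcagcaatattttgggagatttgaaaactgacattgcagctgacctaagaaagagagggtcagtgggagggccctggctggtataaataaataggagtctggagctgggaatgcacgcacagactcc
Ccl8: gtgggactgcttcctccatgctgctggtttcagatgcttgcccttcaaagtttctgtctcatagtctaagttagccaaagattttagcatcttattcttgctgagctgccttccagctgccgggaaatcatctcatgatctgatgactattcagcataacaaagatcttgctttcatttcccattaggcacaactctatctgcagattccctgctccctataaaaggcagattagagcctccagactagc
Ccr4: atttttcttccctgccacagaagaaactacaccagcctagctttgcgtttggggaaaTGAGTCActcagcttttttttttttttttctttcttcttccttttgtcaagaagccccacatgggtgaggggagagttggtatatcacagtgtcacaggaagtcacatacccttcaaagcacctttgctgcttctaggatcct
Cxcl10: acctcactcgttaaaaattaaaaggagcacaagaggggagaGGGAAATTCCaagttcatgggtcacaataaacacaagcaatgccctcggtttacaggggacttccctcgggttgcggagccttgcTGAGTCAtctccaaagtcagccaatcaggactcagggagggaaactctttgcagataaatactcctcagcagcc
Cxcl12: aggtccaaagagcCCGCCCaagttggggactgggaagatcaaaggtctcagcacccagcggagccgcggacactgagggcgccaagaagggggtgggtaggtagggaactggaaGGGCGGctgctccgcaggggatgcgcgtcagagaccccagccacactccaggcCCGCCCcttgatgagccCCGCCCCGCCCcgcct

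The stretches of Cxcl13 and Ccl8 held none of the 4 motifs. Ccr4 held an AP-1 match at -143, counted from the transcript start. Cxcl10 held an NF-kB match at -159 and an AP-1 match at -74. Cxcl12 held GC boxes at -187, -86, -33, -16 and -11, of which the pair nearest the start share a base. Over windows from 250 bases upstream to 50 downstream, 44 members had a RefSeq promoter. NF-kB matches stood in 4 of the 44 (9.09%, against 1.63% of all 27025 genes with a window), namely Ccl1, Ccr3, Cxcl10 and Cxcl3. AP-1 matches stood in 9 (20.5%, against 8.97%), STAT matches in 4 (9.09%, against 9.55%) and GC boxes in 9 (20.5%, against 38.2%). No member's window had matches to different motifs that overlapped. A match describes the letters in the window and is not evidence of binding.

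The homeostatic ligands made up most of the family's counts. Levels between genes were compared per kilobase of exon, and Cxcl14, a skin chemokine with antimicrobial activity made by epidermal cells and fibroblasts, had the highest at 75.6 CPM per kb in Sp6 cKO, 76.6 in Sp8 cKO, 82.1 in Sp6+Sp8 cKO and 108 in wildtype. All 3 cKO libraries were below wildtype, with log2 ratios of -0.52, -0.50 and -0.40, none of which was past the rule. Cxcl12, the ligand of Cxcr4 and Ackr3 that retains progenitors and guides leukocytes and vessels, had 166 CPM in Sp6 cKO, 193 in Sp8 cKO, 162 in Sp6+Sp8 cKO and 144 in wildtype. Its log2 ratios to wildtype were 0.20, 0.42 and 0.17. Ccl25, a ligand of Ccr9 known from thymus and gut, lay between 1.01 and 2.12 CPM with no ratio past the rule. It was 2.10-fold lower in Sp6 cKO than in wildtype (1.12 to 4.23), but the log2 ratio of -0.98 just missed the rule.

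**Figure D2:**
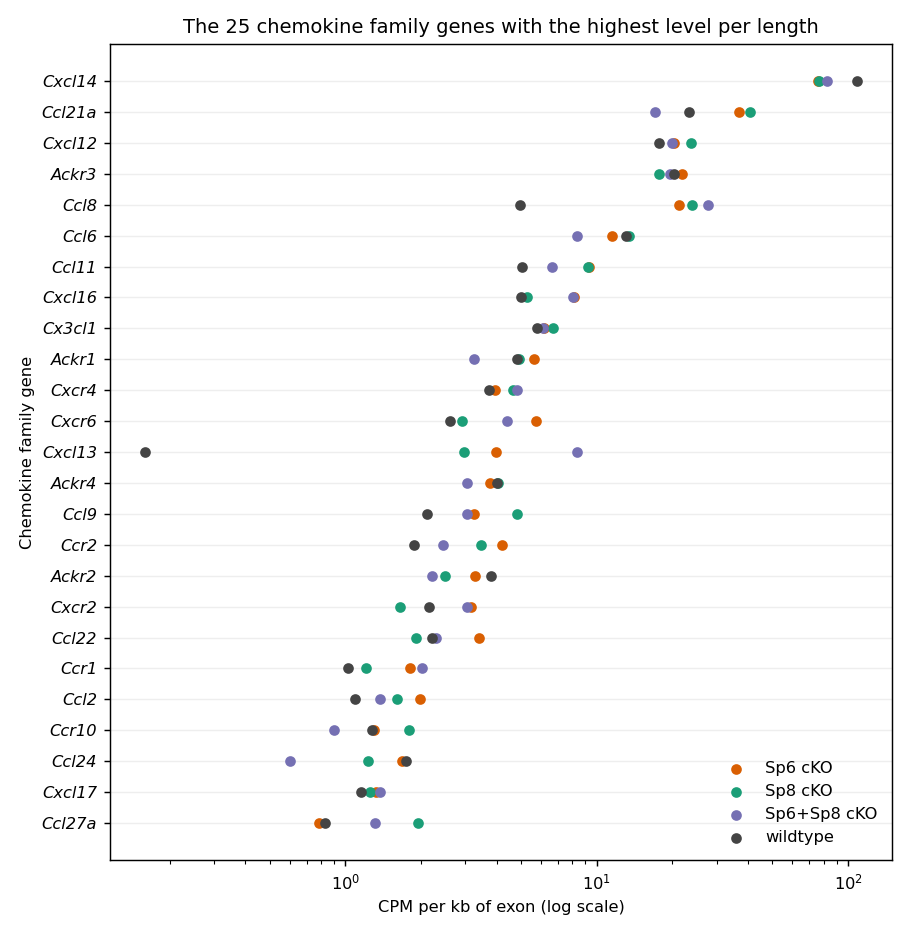
CPM per kb of exon (horizontal, log scale) of the 25 chemokine family genes with the highest mean level per length, 1 point per library. Cxcl14 leads in all 4 libraries, from 75.6 in Sp6 cKO to 108 in wildtype, and Cxcl13 shows the widest spread, with 8.31 in Sp6+Sp8 cKO and 0.160 in wildtype.

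Ccl21a, which lymphatic vessels and lymphoid stroma make to draw Ccr7-bearing dendritic and T cells, separated the Sp6+Sp8 cKO library from the single knockouts. It had 31.9 CPM in Sp6 cKO, 35.2 in Sp8 cKO, 14.8 in Sp6+Sp8 cKO and 20.3 in wildtype (412, 444, 228 and 442 counts). The Sp6+Sp8 cKO level was the lowest of the 4, 2.16-fold lower than Sp6 cKO (95% interval 1.83 to 2.55) and 2.38-fold lower than Sp8 cKO (2.02 to 2.80), and both ratios lie within batch 1. Of the 31-base words in its exons, 80.6% also occur in other annotated genes, most of them in Gm21541, so its reads could be divided among near copies. With the counts of Ccl21b, Gm10591, Gm13304 and Gm21541 added, the Sp6+Sp8 cKO library remained lower, at log2 ratios of -1.04 to Sp6 cKO and -1.13 to Sp8 cKO. Markers of lymphatic endothelium summed to 101, 94.0, 72.8 and 81.3 CPM in the same order of libraries, with 0 of 6 past the rule in any comparison and none of them at 0. Nail and hair keratins summed to 4300, 4721, 2048 and 4040 CPM, and 4 of 7 were lower in Sp6+Sp8 cKO than in each single knockout. The part of either in the Ccl21a values was not tested.

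Cxcl13 (ENSMUSG00000023078, GRCm38 chromosome 5, 95956951 to 95961068), the B cell chemoattractant that binds Cxcr5 and is made by follicular stroma, macrophages and some T cells, gave the largest ratios of the family. It had 59 counts in Sp6 cKO, 43 in Sp8 cKO, 147 in Sp6+Sp8 cKO and 4 in wildtype, or 4.57, 3.41, 9.55 and 0.184 CPM. Every cKO library was far above the wildtype library, which stood near the limit of 3 counts (0.138 CPM) set for detection there. Over wildtype, Sp6 cKO was 24.9-fold higher (9.21 to 94.3), Sp8 cKO 18.6-fold (6.74 to 71.2) and Sp6+Sp8 cKO 51.9-fold (19.9 to 193), with wide intervals because of the 4 wildtype counts. Within batch 1, Sp6+Sp8 cKO was 2.09-fold higher than Sp6 cKO (1.53 to 2.88) and 2.80-fold higher than Sp8 cKO (1.98 to 4.03).

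Its receptor Cxcr5 stayed under 1 CPM, with 6, 10 and 4 counts in Sp6, Sp8 and Sp6+Sp8 cKO and 13 in wildtype. Of the 8 B and plasma cell markers, Sdc1, which keratinocytes also express, stood at 299, 289 and 284 CPM in these cKO libraries and 347 in wildtype, and the other 7 summed to 4.26, 3.97 and 3.18 CPM and 3.27 in wildtype. Only 2, 3 and 1 of the 8 could be compared with wildtype, and the call among them was Jchain in Sp6 cKO, a joining chain of secreted antibodies, with 18 counts there and 8 in wildtype. The plasma cell marker Mzb1 had 1, 1 and 2 counts in the cKO libraries and 0 in wildtype.

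Ccl8 (ENSMUSG00000009185, GRCm38 chromosome 11, 82115185 to 82116799), which mouse skin macrophages make and which attracts Ccr8-bearing T cells in mice, was the other member higher in every cKO library. It had 140 counts in Sp6 cKO, 154 in Sp8 cKO, 218 in Sp6+Sp8 cKO and 55 in wildtype, or 10.9, 12.2, 14.2 and 2.53 CPM. The cKO levels lay close together and apart from wildtype. Sp6 cKO was 4.29-fold higher than wildtype (3.12 to 5.97), Sp8 cKO 4.83-fold (3.53 to 6.70) and Sp6+Sp8 cKO 5.60-fold (4.15 to 7.67), and no ratio among the cKO libraries was past the rule. Per kb of exon Ccl8 stood high in the family, at 21.2, 23.9 and 27.7 CPM in the cKO libraries and 4.95 in wildtype. Summed macrophage and monocyte markers were 499, 509 and 431 CPM in Sp6, Sp8 and Sp6+Sp8 cKO and 421 in wildtype, with 0 of 10 past the rule in any comparison and none at 0. Their median log2 ratios to wildtype were 0.36, 0.53 and 0.17. The part of these cells in the Ccl8 values was not tested.

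**Figure D3:**
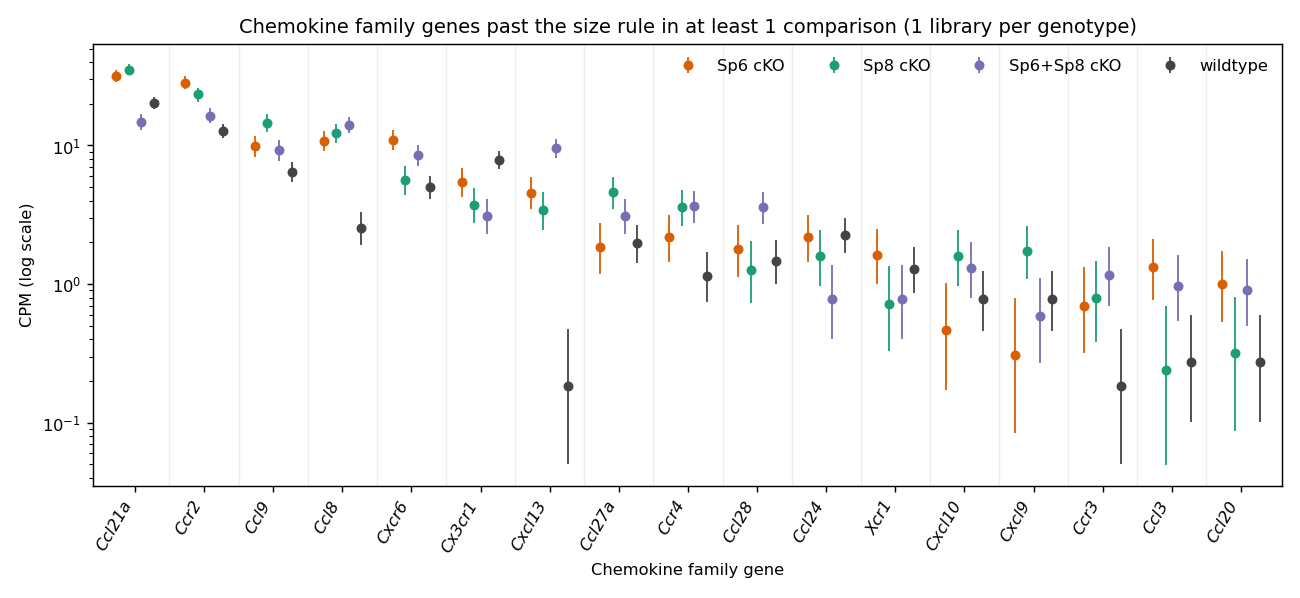
CPM (log scale) of 17 chemokine family genes past the size rule in at least 1 comparison, 1 point per library with its exact 95% interval for counting error. The wildtype points of Cxcl13 and Ccl8, at 0.184 and 2.53 CPM, lie below all 3 cKO points, and Ccl21a is lowest in Sp6+Sp8 cKO.

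The other inflammatory CC ligands moved less evenly. Ccl9, a monocyte and osteoclast chemokine that acts through Ccr1, had 9.92 CPM in Sp6 cKO, 14.6 in Sp8 cKO, 9.23 in Sp6+Sp8 cKO and 6.44 in wildtype. It was past the rule in Sp8 cKO alone, 2.27-fold higher than wildtype (1.81 to 2.85), but the Sp8 cKO level was not past the rule against either other cKO library. Osteoclast markers summed to 118, 177 and 155 CPM in Sp6, Sp8 and Sp6+Sp8 cKO and to 87.5 CPM in wildtype. Of the 5 compared, 0, 3 and 3 were higher than in wildtype, Ctsk among them in Sp8 cKO at a log2 ratio of 1.32. Their part in the Ccl9 values was not tested.

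Ccl3, which recruits monocytes and neutrophils through Ccr1, had 17 counts in Sp6 cKO, 3 in Sp8 cKO, 15 in Sp6+Sp8 cKO and 6 in wildtype. It was 4.78-fold higher in Sp6 cKO than in wildtype (1.80 to 14.8) and 5.53-fold higher than in Sp8 cKO (1.60 to 29.5). The Sp6+Sp8 cKO library had a log2 ratio of 1.45 to wildtype but stayed just under 1 CPM, at 0.975, and was therefore not compared. Ccl2, the main ligand of Ccr2, was between 1.56 and 2.25 CPM in the cKO libraries and at 1.24 in wildtype, with log2 ratios of 0.80, 0.51 and 0.30. Ccl7, which shares that receptor, had 1.16, 0.556 and 0.975 CPM in the same cKO libraries and 0.598 in wildtype. Ccl6, a macrophage chemokine of rodents, had 20.7, 24.2 and 15.0 CPM in the cKO libraries and 23.5 in wildtype, with no ratio past the rule.

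The interferon-inducible ligands of Cxcr3, which draw activated T cells and natural killer cells, summed to 1.16 CPM in Sp6 cKO, 3.81 in Sp8 cKO, 2.21 in Sp6+Sp8 cKO and 1.84 in wildtype. Cxcl9 had 4 counts in Sp6 cKO, 22 in Sp8 cKO, 9 in Sp6+Sp8 cKO and 17 in wildtype, or 0.310, 1.75, 0.585 and 0.782 CPM. Sp8 cKO stood above the other 3 libraries, 2.23-fold over wildtype (1.13 to 4.48), while Sp6+Sp8 cKO was 2.99-fold lower than Sp8 cKO (1.32 to 7.37) and Sp6 cKO 5.63-fold lower than Sp8 cKO (1.91 to 22.5). Cxcl10 had 6, 20 and 20 counts in Sp6, Sp8 and Sp6+Sp8 cKO and 17 in wildtype, or 0.465, 1.59, 1.30 and 0.782 CPM. The Sp6 cKO library was the low one, 3.41-fold lower than Sp8 cKO (1.32 to 10.4), and Sp6+Sp8 cKO was 2.79-fold higher than Sp6 cKO (1.08 to 8.50). Cxcl11, annotated as a polymorphic pseudogene, had 5 or 6 counts in every library, and Cxcr3 had between 3 and 7. Neither Cxcl9 nor Cxcl10 reached 2 CPM in any library, and the transcript of their inducer Ifng had a count of 0 in all 4.

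Of the type 2 and dendritic cell ligands, Ccl24, an eosinophil chemoattractant that binds Ccr3, was lowest with both factors deleted. It had 28 counts in Sp6 cKO, 20 in Sp8 cKO, 12 in Sp6+Sp8 cKO and 49 in wildtype, or 2.17, 1.59, 0.780 and 2.25 CPM. Sp6+Sp8 cKO was 2.89-fold lower than wildtype (1.51 to 5.97) and 2.78-fold lower than Sp6 cKO (1.37 to 6.01). Against Sp8 cKO it was 2.04-fold lower with an interval that held 1 (0.948 to 4.57), so that ratio was not past the rule. Ccl11, another ligand of Ccr3, pointed the other way at 10.1, 10.0 and 7.15 CPM in the cKO libraries and 5.43 in wildtype, with log2 ratios of 0.88, 0.87 and 0.39 that did not pass the rule. Ccr3 itself had 9 counts in Sp6 cKO, 10 in Sp8 cKO, 18 in Sp6+Sp8 cKO and 4 in wildtype, and was 6.36-fold higher in Sp6+Sp8 cKO than in wildtype (2.09 to 25.8). Eosinophil and basophil markers summed to between 1.04 and 2.22 CPM in every library, none of the 6 reached 1 CPM, and Siglecf had 6, 4 and 3 counts in the cKO libraries and 0 in wildtype.

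Ccl22, which dendritic cells make for Ccr4-bearing T cells, had 7.91 CPM in Sp6 cKO, 4.45 in Sp8 cKO, 5.33 in Sp6+Sp8 cKO and 5.15 in wildtype, with no ratio past the rule. Ccl17, the other ligand of that receptor, had between 2 and 6 counts in each library. Ccr4, the skin-homing receptor of memory and regulatory T cells, had 28 counts in Sp6 cKO, 45 in Sp8 cKO, 56 in Sp6+Sp8 cKO and 25 in wildtype, or 2.17, 3.57, 3.64 and 1.15 CPM. Both libraries with Sp8 deleted were above wildtype, 3.11-fold in Sp8 cKO (1.86 to 5.29) and 3.17-fold in Sp6+Sp8 cKO (1.94 to 5.29). Sp6 cKO had a log2 ratio of 0.85 to wildtype, and no ratio among the cKO libraries was past the rule.

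Among ligands of epithelia, Ccl28, made by mucosal and skin epithelium and a ligand of Ccr10, was highest with both factors deleted. It had 23 counts in Sp6 cKO, 16 in Sp8 cKO, 55 in Sp6+Sp8 cKO and 32 in wildtype, or 1.78, 1.27, 3.57 and 1.47 CPM. The Sp6+Sp8 cKO level was 2.43-fold higher than wildtype (1.54 to 3.88) and 2.81-fold higher than Sp8 cKO (1.59 to 5.26). Its log2 ratio to Sp6 cKO, 0.95, was not past the rule. Ccl20, a keratinocyte ligand of Ccr6 that is induced by IL-17, had 13, 4 and 14 counts in Sp6, Sp8 and Sp6+Sp8 cKO and 6 in wildtype. It was 3.65-fold higher in Sp6 cKO than in wildtype (1.30 to 11.7), and Sp6+Sp8 cKO, at 0.910 CPM, fell short of the level needed for a comparison. That call was lost when library totals alone, or totals without the 20 most abundant genes, set the scale, which put Sp6 cKO just under 1 CPM. The ratio of Sp6 cKO to Sp8 cKO was not past the rule. Il17a had 15, 0 and 13 counts in Sp6, Sp8 and Sp6+Sp8 cKO and 0 in wildtype. Ccr6 had 17, 10 and 9 counts in Sp6, Sp8 and Sp6+Sp8 cKO and 14 in wildtype. It was highest in Sp6 cKO, at 1.32 CPM against 0.585 to 0.794 CPM in the other 3 libraries, but no ratio was past the rule.

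Ccl27a, the keratinocyte ligand of Ccr10, had 24, 58 and 48 counts in Sp6, Sp8 and Sp6+Sp8 cKO and 43 in wildtype. By these counts it was 2.33-fold higher in Sp8 cKO than in wildtype (1.54 to 3.54) and 2.47-fold lower in Sp6 cKO than in Sp8 cKO (1.51 to 4.16). Its exons share 57.0% of their 31-base words with other genes, and with Gm13306 and Gm20878 added the counts were 111, 181 and 150 in the cKO libraries and 222 in wildtype. The log2 ratios were then 0.49 for Sp8 cKO to wildtype and -0.73 for Sp6 cKO to Sp8 cKO, and neither passed the rule. The receptor Ccr10 was between 1.56 and 3.10 CPM in every library, with no ratio past the rule.

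The transmembrane ligands were steadier. Cx3cl1, which captures monocytes through Cx3cr1, lay between 22.7 and 26.2 CPM in all 4 libraries, with log2 ratios to wildtype of 0.09, 0.20 and 0.08 in Sp6, Sp8 and Sp6+Sp8 cKO. Cxcl16, which binds Cxcr6, stood at 24.6, 15.9 and 24.2 CPM in these cKO libraries and at 15.1 in wildtype, with log2 ratios of 0.70, 0.07 and 0.68. Xcl1 had a count of 0 in every library. Its receptor Xcr1, carried by cross-presenting dendritic cells, had 21, 9 and 12 counts in the cKO libraries and 28 in wildtype, and was 2.28-fold higher in Sp6 cKO than in Sp8 cKO with an interval whose lower end rounds to 1 (1.00 to 5.65). Dendritic and Langerhans cell markers summed to 242, 278 and 253 CPM in Sp6, Sp8 and Sp6+Sp8 cKO and 231 in wildtype, and Clec10a alone among them was higher than wildtype, in Sp6 cKO and Sp8 cKO.

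Of the CC receptors, Ccr2, which brings monocytes into tissue, had the highest level per kb of exon, at 4.21 CPM in Sp6 cKO, 3.45 in Sp8 cKO, 2.43 in Sp6+Sp8 cKO and 1.88 in wildtype. Without the scaling to length it had 28.5 CPM in Sp6 cKO, 23.3 in Sp8 cKO, 16.4 in Sp6+Sp8 cKO and 12.7 in wildtype (367, 294, 253 and 276 counts). The 3 cKO libraries lay above wildtype, and Sp6 cKO was past the rule at 2.24-fold (1.91 to 2.63), whereas Sp8 cKO had a log2 ratio of 0.87 and Sp6+Sp8 cKO of 0.37. Ccr1 had 5.12, 3.41 and 5.72 CPM in the cKO libraries and 2.90 in wildtype, and Ccr9 between 6.50 and 9.07 in all 4, with no ratio past the rule for either.

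Cx3cr1, the fractalkine receptor of patrolling monocytes and resident macrophages, was the receptor lower than wildtype. It had 70 counts in Sp6 cKO, 47 in Sp8 cKO, 48 in Sp6+Sp8 cKO and 171 in wildtype, or 5.43, 3.73, 3.12 and 7.86 CPM. All 3 cKO libraries were below wildtype, by 2.11-fold in Sp8 cKO (1.52 to 2.98) and 2.52-fold in Sp6+Sp8 cKO (1.82 to 3.55), and Sp6 cKO had a log2 ratio of -0.52. Ccr2 and Cx3cr1, both monocyte receptors, therefore had log2 ratios to wildtype of opposite sign in each cKO library, while none of the 10 macrophage and monocyte markers passed the rule.

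Cxcr6, a receptor of tissue-resident T cells, had 142 counts in Sp6 cKO, 71 in Sp8 cKO, 131 in Sp6+Sp8 cKO and 109 in wildtype, or 11.0, 5.64, 8.51 and 5.01 CPM. Sp6 cKO was 2.20-fold higher than wildtype (1.70 to 2.85), while Sp8 cKO had a log2 ratio of 0.17 and Sp6+Sp8 cKO of 0.75. Beside these values, Cd3e, a chain of the T cell receptor complex, stood at 7.44, 2.14 and 5.78 CPM in Sp6, Sp8 and Sp6+Sp8 cKO and at 1.10 in wildtype, and Trdc, the constant region of the delta chain, at 8.22, 2.78 and 7.47 CPM and 0.828 in wildtype. Of the 10 T cell markers, Thy1, which other cells also carry, stood at 86.4, 81.7 and 71.0 CPM in the cKO libraries and 67.0 in wildtype, and the other 9 summed to 33.5, 18.6 and 30.7 CPM and 13.6 in wildtype. Not all shared the order of Cxcr6: Cd3g was highest in Sp6+Sp8 cKO, at 3.70 CPM, and Trac in Sp8 cKO, at 1.03. None of the 10 was at 0, and 4 of 7, 3 of 8 and 4 of 7 compared were higher than wildtype. Their part in the Cxcr6, Ccr4 and Ccl20 values was not tested.

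Cxcr2, the neutrophil receptor for the ELR-bearing CXC ligands, had 9.61 CPM in Sp6 cKO, 5.00 in Sp8 cKO, 9.29 in Sp6+Sp8 cKO and 6.53 in wildtype, and Cxcr1 had at most 1 count. Neutrophil markers summed to 107, 84.1 and 121 CPM in Sp6, Sp8 and Sp6+Sp8 cKO and 57.6 in wildtype. Without S100a8 the other 9 summed to 56.8, 53.4 and 51.4 CPM in the cKO libraries and 48.8 in wildtype. S100a8, which keratinocytes of wounded epidermis also make, had 50.2, 30.6 and 69.2 CPM in the cKO libraries and 8.83 in wildtype, whereas the granule gene Mpo had 12.6, 17.1 and 6.17 CPM there and 15.8 in wildtype. S100a9 was higher than wildtype in all 3, at log2 ratios of 2.57, 2.13 and 3.24, and Csf3r in Sp6 cKO at 1.12 and in Sp6+Sp8 cKO at 1.08. Of 9 neutrophil markers compared with wildtype, 3, 2 and 3 were higher and 0, 1 and 2 lower in Sp6, Sp8 and Sp6+Sp8 cKO. The defining marker Ly6g had 1, 5 and 0 counts in the cKO libraries and 8 in wildtype. Cxcl3, a ligand of Cxcr2, had 8, 2 and 11 counts in Sp6, Sp8 and Sp6+Sp8 cKO and 3 in wildtype. Cxcr4, the signalling receptor of Cxcl12, stayed between 6.71 and 8.71 CPM in the 4 libraries with no ratio past the rule.

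**Figure D4:**
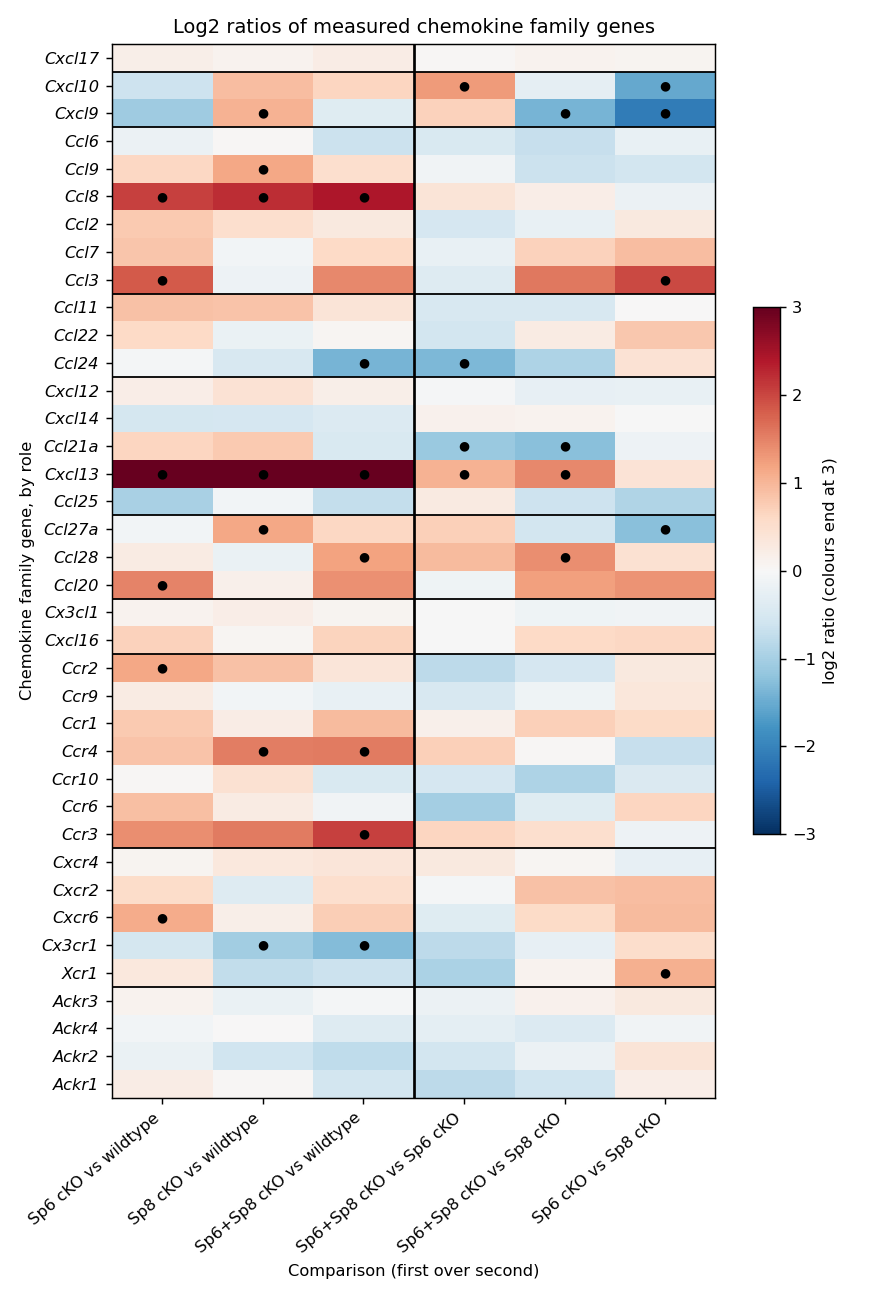
Log2 ratios of 38 chemokine family genes with at least 1 CPM in at least 1 library (rows, by role) in the 6 comparisons (columns, first library over second), on a colour scale that ends at 3 in both directions. Dots mark ratios past the size rule, which are 20 of the ratios to wildtype and 13 of those among the cKO libraries, and the 4 atypical receptors carry none.

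None of the 4 atypical receptors passed the rule in any comparison. Ackr3, which binds Cxcl12 and shapes its gradients, had 945 counts in Sp6 cKO, 747 in Sp8 cKO, 1005 in Sp6+Sp8 cKO and 1479 in the deeper wildtype library, which put its log2 ratios to wildtype at 0.11, -0.20 and -0.06. Ackr4, which takes up Ccl19, Ccl21 and Ccl25, had 20.2, 21.8 and 16.4 CPM in the cKO libraries and 21.6 in wildtype. Ackr2, a scavenger of inflammatory CC ligands on lymphatic vessels, had 10.2, 7.78 and 6.89 CPM in the cKO libraries and 11.9 in wildtype, and its log2 ratios to wildtype of -0.21, -0.60 and -0.77 were all below 0. Ackr1, which carries chemokines across venules, had 7.91, 6.91 and 4.55 CPM in the cKO libraries and 6.76 in wildtype. Its locus overlaps Cadm3, with which it shares part of its 23.0% of 31-base words found elsewhere.

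Summed by role, ligands ranged from 455 to 499 CPM and receptors from 163 to 203 CPM over the 4 libraries. CC receptors summed to 55.5 CPM in Sp6 cKO, 46.9 in Sp8 cKO, 38.6 in Sp6+Sp8 cKO and 30.9 in wildtype, and Ccr2 was the largest term in each. Inflammatory CC ligands summed to 47.6, 54.7 and 42.6 CPM in these cKO libraries and 35.1 in wildtype, and epithelial CC ligands to 4.65, 6.19 and 7.60 CPM and 3.73 in wildtype. The lymphoid and homeostatic ligands summed to 342, 374 and 338 CPM in the cKO libraries and 365 in wildtype, and the atypical receptors to 112, 95.7 and 93.2 CPM and 108 in wildtype. Over all members the sums were 669, 666 and 618 CPM in Sp6, Sp8 and Sp6+Sp8 cKO and 625 in wildtype.

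Many members lie in clusters of related genes on GRCm38. On chromosome 11, between 82035571 and 82305690, lie Ccl2, Ccl7, Ccl11, Ccl12, Ccl8 and Ccl1. All members compared there had log2 ratios to wildtype above 0, from 0.80 to 2.05 over 4 genes in Sp6 cKO, from 0.51 to 2.22 over 3 in Sp8 cKO, and from 0.30 to 2.43 over 3 with both factors deleted, but only Ccl8 passed the rule. A further cluster on chromosome 11, between 83525778 and 83664683, holds Ccl5, Ccl9, Ccl6, Ccl3 and Ccl4, and its log2 ratios to wildtype had mixed signs, from -0.18 to 1.84 in Sp6 cKO and from -0.64 to 0.51 in Sp6+Sp8 cKO. On chromosome 9, between 123678439 and 124113557, lie the receptors Ccr9, Cxcr6, Xcr1, Ccr1, Ccr1l1, Ccr3 and Ccr2. Of these, all 5 compared in Sp6 cKO were above wildtype, at log2 ratios of 0.25 to 1.16, and all 5 were above Sp8 cKO, at 0.28 to 1.06. In Sp8 cKO 3 of 5, and in Sp6+Sp8 cKO 4 of 6, had log2 ratios to wildtype above 0. Neighbouring members are not independent observations.

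Genes that act with the family were read from 6 lists. Of all genes compared, 2.24%, 2.27% and 2.84% were higher than wildtype in Sp6, Sp8 and Sp6+Sp8 cKO, and 2.16%, 1.55% and 2.95% lower. Of 27 measured genes of signal transduction below the receptors, 27, 26 and 27 could be compared with wildtype in Sp6, Sp8 and Sp6+Sp8 cKO. Of these, 2, 0 and 1 were higher, and none was lower. Rgs1, which shortens G protein signalling in lymphocytes, had 39, 4 and 42 counts in Sp6, Sp8 and Sp6+Sp8 cKO and 18 in wildtype, and was higher in both libraries with Sp6 deleted. Was, an actin regulator of blood cells, was higher in Sp6 cKO at a log2 ratio of 1.14. Among 15 genes of leukocyte adhesion, 14 could be compared with wildtype in each of these libraries, and 1, 0 and 1 were higher. Each time this was Itgae, the integrin chain of intraepithelial T cells, at log2 ratios of 1.23 and 1.44. The median log2 ratios of the adhesion genes compared were 0.50, 0.43 and 0.42, against -0.01, -0.01 and -0.02 over all genes. Icam2 was the adhesion gene past the rule downward, at -1.17 in Sp6+Sp8 cKO.

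Of 18 genes listed as other chemoattractants and their receptors, 16, 13 and 16 could be compared with wildtype in Sp6, Sp8 and Sp6+Sp8 cKO. In that order, 2, 0 and 1 were higher. In Sp6 cKO these were Fpr2, a receptor for formylated peptides, at a log2 ratio of 1.27, and Ebi3 at 1.11. Ebi3 encodes a cytokine subunit and is neither a chemoattractant nor a receptor of one. In Sp6+Sp8 cKO it was the prostaglandin D2 receptor Ptgdr2, at 1.93. Of 15 measured cytokines that induce chemokines, 5 could be compared with wildtype in each cKO library and 2 were higher in each. Il1b had 26, 21 and 38 counts in Sp6, Sp8 and Sp6+Sp8 cKO and 12 in wildtype, at log2 ratios of 1.66, 1.40 and 1.93. The second gene was Il17a in Sp6 cKO, Tslp in Sp8 cKO at 1.37 and Lta in Sp6+Sp8 cKO at 1.34.

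Of 13 NF-kB factors and inhibitors, 1, 0 and 1 were higher than wildtype in Sp6, Sp8 and Sp6+Sp8 cKO, and both calls were Zc3h12a, a ribonuclease that degrades inflammatory transcripts. It had 73.6 CPM in Sp6 cKO, 19.7 in Sp8 cKO, 75.2 in Sp6+Sp8 cKO and 18.7 in wildtype. Both libraries with Sp6 deleted were above Sp8 cKO as well, at log2 ratios of 1.90 in Sp6 cKO and 1.93 in Sp6+Sp8 cKO. Of 13 proteases that cleave chemokines, 10 could be compared with wildtype in each cKO library. Of these, 1, 2 and 2 were higher in Sp6, Sp8 and Sp6+Sp8 cKO. Mmp9, a gelatinase of osteoclasts, neutrophils and wound epidermis, had 1225, 1968 and 2529 counts in the cKO libraries and 655 in wildtype, at log2 ratios of 1.65, 2.37 and 2.44. Mmp13 was higher at 1.12 with Sp8 deleted and at 1.53 with both deleted, and neutrophil elastase Elane was lower in Sp6+Sp8 cKO at -1.39.

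The members under 1 CPM everywhere included Ccr7, the receptor of Ccl21a, with 8, 5 and 7 counts in Sp6, Sp8 and Sp6+Sp8 cKO and 10 in wildtype, and Ccl19, its other ligand, with 7, 5 and 4 counts and 5 in wildtype. Ccr8, the mouse receptor of Ccl8, had 3, 1 and 1 counts in the cKO libraries and 0 in wildtype. Ccl12, Ccl4, Ccl1 and Ccl5 each had at most 10 counts in a library. Some intervals at this level left out 1, such as those of Ccl12, at 10 counts in Sp6 cKO and 3 in wildtype (1.45 to 31.8), and of Cxcl3, at 11 in Sp6+Sp8 cKO and 3 in wildtype (1.37 to 28.9). With many intervals read, some can leave out 1 through counting error alone. Xcl1, Ccl26, Ccl21b, Ccl27b, Ccl19-ps1 and Ccl19-ps3 had a count of 0 in all 4 libraries, and a detection floor of 3 counts corresponds to 0.233, 0.238 and 0.195 CPM in Sp6, Sp8 and Sp6+Sp8 cKO and 0.138 in wildtype. For Ccl21b, Ccl27b and Ccl19-ps3, all of whose 31-base words occur in other genes, and for Ccl19-ps1, with 68.7% of them, a 0 depends on how shared reads were divided and sets no limit on the level.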

How the data were processed

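Gene counts were analysed from 4 mouse digit tip libraries, 1 per genotype. Per the labels' protocols, digits were trimmed at the last joint and libraries were strand-specific and made from poly-A RNA. The authors deposited estimated counts for each gene with no scaling for depth. Tools named in the submitters' processing notes, without their roles, were Salmon, STAR, featureCounts, edgeR, deepTools and Trim Galore 0.6.4, with the build GRCm38. The gene annotation they counted on is not named in the sources used here. Where near-identical genes compete for reads, an estimated count depends on the division made. A further column (1) of the table belongs to no listed sample and was left out.

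The counts were rounded to whole numbers and scaled with TMM factors of edgeR 4.0.16 (R 4.3.3) over the 4 libraries. A prior count of 2 went into log2 CPM, whose differences are the log2 ratios, and Clopper-Pearson 95% intervals of each ratio were conditional on the sum of both counts. The size rule was applied to all genes, and percentages for all genes come from that run. Beforehand the rule was tried on simulated counts that held counting error only. Such counts cannot show how it performs with differences between animals or batches. The lowest level taken as detected was 3 counts in a library.

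Positions and exon lengths were looked up by identifier in GENCODE M21, on GRCm38 (60 of 60 members), and promoters from RefSeq on GRCm38.p6 (44 members). Members were described where past the size rule, among the 10 most abundant, or as ligand or receptor of these; of each list, up to 4 genes per comparison past the rule and defining markers at 0 were named. Sp6, Sp8, Xist, Kdm5d and the remaining members were named apart from that choice, and 1 member past the rule is not reported here, although counts and sums over the family include it. The members and gene lists were chosen with earlier results of these data known. Alternatives were scaling by DESeq2 1.42.0 size factors or by library totals with and without the 20 most abundant genes, other CPM minimums, prior counts and fold thresholds, unrounded counts and, chosen after seeing the data, near copies added.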

Additional observations from a re-analysis of the deposited data

How the results depend on the processing

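Of the 34 ratios past the size rule, 14 stayed past it under all 10 alternatives, and none of the 34 changed sign. Ccl27a in Sp6+Sp8 cKO against wildtype, not past the rule, had a log2 ratio of 0.63 and one of -0.07 with near copies added. The 20 others were lost under a CPM minimum of 5, which leaves fewer genes to compare. There, 3, 2 and 2 members were higher than wildtype in Sp6, Sp8 and Sp6+Sp8 cKO, and 0, 1 and 1 were lower. Under that minimum the Sp6+Sp8 cKO library had 1 member higher and 2 lower against Sp6 cKO, and 1 higher and 1 lower against Sp8 cKO. Sp6 cKO against Sp8 cKO had 0 in either direction. At a 1.5-fold threshold, by construction a looser one, the counts against wildtype were 15 higher and 1 lower in Sp6 cKO, 10 and 2 in Sp8 cKO, and 9 and 4 with both deleted. Between cKO libraries they were 5 higher and 6 lower for Sp6+Sp8 against Sp6 cKO, 5 and 7 for Sp6+Sp8 against Sp8 cKO, and 6 and 4 for Sp6 against Sp8 cKO. A prior count of 0.5 put 1 member lower in Sp6 cKO than in wildtype (Ccl25), and dropping the CPM minimum put 9 higher in Sp6 cKO (Cxcl3, Ccl12 and Ccr3 added), 7 in Sp8 cKO (Ccr3) and 8 with both deleted (Ccl3, Ccl20 and Cxcl3). The share over all genes was not computed for other CPM minimums, fold thresholds or prior counts. Whether these member counts exceed it therefore cannot be said. The number higher in Sp6 than in Sp8 cKO was 1 with library totals alone, without the 20 most abundant genes or with a prior count of 5, as Xcr1 was lost. Both library-total scalings also lost Ccl20 in Sp6 cKO against wildtype. Cxcl9 in Sp8 cKO against wildtype was also lost with a prior count of 5, at a log2 ratio of 0.91, and both Ccl27a calls with near copies added. DESeq2 size factors and unrounded counts lost none.

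Depth limits members under 1 CPM, where a library holds few counts. No paired analysis was possible because each group has 1 library, and leaving out a replicate was not run for the same reason.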
